A study of Mus musculus with 73 samples.

Results

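The genes described are 7 mouse genes of goblet cell mucus, *Muc2*, *Tff3*, *Agr2*, *Fcgbp*, *Clca1*, *Zg16* and *Spink4*, chosen by name. All 7 had a row in each data set, out of 17399 genes in jejunal epithelium, 20882 in microdissected stroma and 21058 in single cells. The epithelium came from Lgr5(GFP-ires-DTR/+) mice aged 4 months, with 4 mice given diphtheria toxin (DT) and 4 mice given saline, and was collected 48 h after the injection. In these mice the *Lgr5* locus drives the diphtheria toxin receptor, the control mice carry the same allele, and DT acts on every cell with *Lgr5*, both the villus tip telocytes (stromal cells with long thin extensions) and the stem cells at the crypt base. The microdissected stroma and the single cells came from untreated C57BL/6 mice aged 3 months, with the crypt dissected in 3 mice, each of the villus bottom, center and tip in 5 mice, and single cells sorted from 8 mice into 11 gates.

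Goblet cells are the secretory cells of the intestinal epithelium that make mucus. Their main product is the gel-forming mucin *Muc2*, which is folded and linked in the endoplasmic reticulum, glycosylated in the Golgi, packed into granules and released onto the surface, where it swells into a net. Other secreted proteins join that gel or act on it, and a few helpers stay behind in the secretory pathway.

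*Muc2* lies on chromosome 7 from 141690340 to 141754693 on the + strand of GRCm38 (GENCODE annotation). *Fcgbp* encodes a large mucus protein with repeated von Willebrand D domains, on chromosome 7 from 28071236 to 28120862 on the + strand. *Zg16* encodes a small lectin of the mucus that binds bacterial cell walls, on chromosome 7 from 127050156 to 127087328 on the - strand. *Clca1* encodes a secreted metalloprotease of the mucus, on chromosome 3 from 145003817 to 145032776 on the - strand. *Tff3* encodes a trefoil peptide, on chromosome 17 from 31125306 to 31129646 on the - strand. *Spink4* encodes a secreted protein of the Kazal-type protease inhibitor family, on chromosome 4 from 40920052 to 40931395 on the + strand. *Agr2* differs from the others in staying in the endoplasmic reticulum, where it acts as a disulfide isomerase in mucin folding, and it lies on chromosome 12 from 35992907 to 36004087 on the + strand. *Muc2*, *Fcgbp* and *Zg16* share chromosome 7 without being neighbours, with 14603011 bases between *Zg16* and *Muc2*.

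RefSeq promoters were matched for 3 of the 7 genes, *Muc2*, *Fcgbp* and *Agr2*, and are shown to set the gene with a fitted change above 0 after DT, *Agr2*, beside a pair with fitted changes below 0, though none of these changes passed the test. Each run holds the 250 bases before the RefSeq start of the gene in GRCm38.p6, read 5′ to 3′ on the + strand. Capitals mark GGGTGTG or its reverse complement CACACCC (a KLF-type motif), CAGCTG (an E-box) and TATAA or its reverse complement TTATA.
*Muc2*, chr7:141690090-141690339: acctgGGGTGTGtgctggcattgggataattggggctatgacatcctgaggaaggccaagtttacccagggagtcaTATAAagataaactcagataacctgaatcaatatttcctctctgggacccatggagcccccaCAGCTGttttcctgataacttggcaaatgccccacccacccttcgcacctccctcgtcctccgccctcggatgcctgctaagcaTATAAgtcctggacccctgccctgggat
*Agr2*, chr12:35992675-35992924: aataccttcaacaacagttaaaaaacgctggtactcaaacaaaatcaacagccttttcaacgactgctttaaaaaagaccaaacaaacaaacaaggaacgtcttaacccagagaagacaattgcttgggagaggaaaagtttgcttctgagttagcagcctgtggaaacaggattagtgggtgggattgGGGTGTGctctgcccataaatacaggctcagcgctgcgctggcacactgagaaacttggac
*Fcgbp*, chr7:28070986-28071235: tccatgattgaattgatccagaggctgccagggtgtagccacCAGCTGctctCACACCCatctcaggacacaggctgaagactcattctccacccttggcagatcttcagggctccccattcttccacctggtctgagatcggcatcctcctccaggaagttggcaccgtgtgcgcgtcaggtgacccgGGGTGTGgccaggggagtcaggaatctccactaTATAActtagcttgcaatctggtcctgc

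These motifs were chosen after the sequences were read, so the matches describe the letters only. The KLF-type motif was found in all 3, beginning 245 bases before the start of *Muc2*, 61 bases before that of *Agr2*, and 61 and, on the other strand, 198 bases before that of *Fcgbp*. On either strand it was found in 6.93% of 32851 RefSeq promoter windows of that length. The E-box lay 112 bases before the start of *Muc2* and 208 bases before that of *Fcgbp* and was found in 13% of the windows. TATAA began 28 bases before the start in both *Muc2* and *Fcgbp*, with another match at 174 bases in *Muc2*, and it or its reverse complement was found in 22.8% of the windows. *Tff3*, *Clca1*, *Zg16* and *Spink4* are named without a sequence.

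Whether the mucus genes are transcribed by the same cells was addressed in the single cells, each a well sorted and sequenced with MARS-seq, which counts unique molecular identifiers (UMIs), 1 for each captured mRNA molecule. The mucus genes were concentrated in very few cells. After wells under 400 or over 8000 UMIs, and those under 250 genes, were set aside, 2347 cells remained. Of these, 2003 held no UMI of any of the 7 genes, 267 held UMIs of 1 gene, 36 of 2 genes and 7 of 3 genes. Another 3 cells held UMIs of 4 of the genes, 4 cells of 5, 12 cells of 6 and 15 cells of all 7. The 34 cells with 4 or more genes carried between 91.2% of the *Spink4* UMIs and 97.9% of the *Agr2* UMIs of the 2347 cells. The wells set aside are not in these shares. They held 4794 mucus gene UMIs in wells above 8000 UMIs and 3148 in wells under the limits. The limit of 4 genes was set after these counts were seen, and everything said of the 34 cells is a description.

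**Figure D1:**
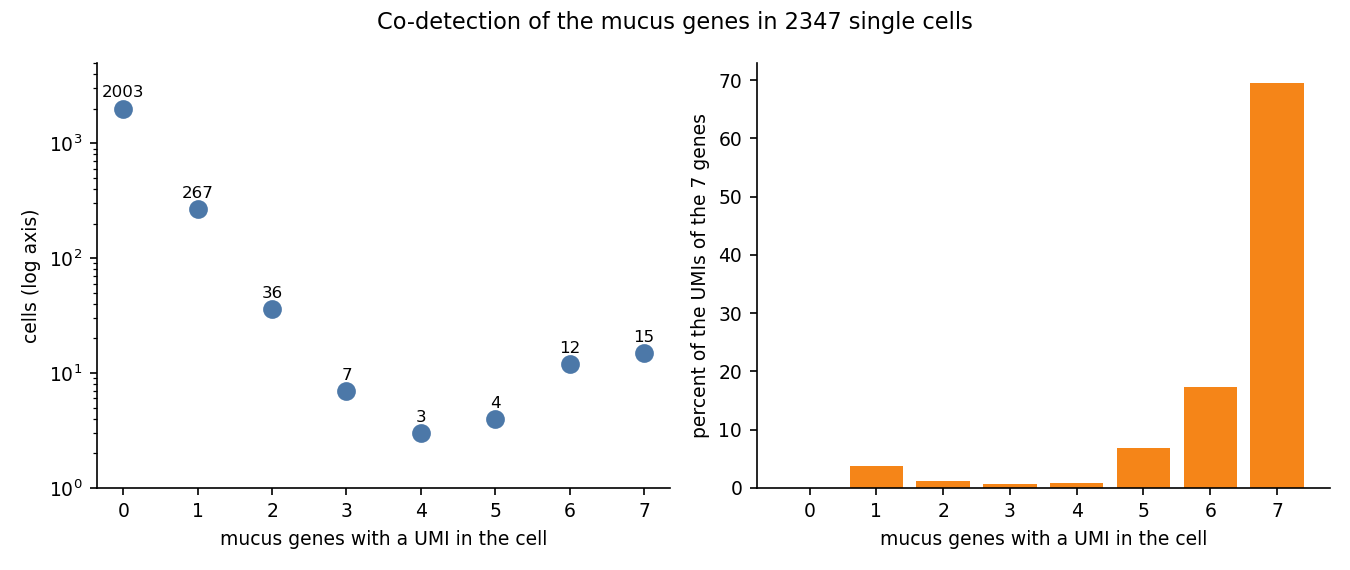
Left, number of cells (log axis) against the number of mucus genes with a UMI in the cell, over 2347 cells. Right, percent of the UMIs of the 7 genes in these 2347 cells held by the cells of each class. The number of cells falls to 3 at 4 genes and is 12 and 15 at 6 and 7 genes, and the 15 cells with all 7 genes hold 69.5% of the UMIs.

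Several gates held other cells than their names give. The cells were clustered with the mucus genes left out of the clustering genes, and clusters were named from the share of their cells with at least 2 markers of a type. This gave 1794 epithelial-like cells in 15 clusters, 334 mesenchymal-like cells, 200 immune-like cells and 19 cells left unnamed. All 73 cells of the CD45 gate and all 9 of the CD31 gate were epithelial-like, as were 606 of 957 cells of the PDGFRa singlets gate and 375 of 461 of its pop 3. All 384 well barcodes occurred on more than 1 plate, so a cell was identified by plate and well together.

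All 34 cells were epithelial-like, and made up 1.90% of the epithelial-like cells (95% exact binomial interval 1.32% to 2.64%, which covers counting error only). They were spread over 12 of the 15 epithelial-like clusters, 13 plates and 6 mice. Mouse B gave 13 of them, mouse H 11, mouse C 5, mouse D 3 and mice A and E 1 each. Mouse F gave 0 of 16 cells of all classes (exact interval up to 20.6%) and mouse G 0 of 223 (up to 1.64%). Of these, 16 and 135 were epithelial-like, so the bound of mouse G is not one for epithelial-like cells. In the mice that had such cells their share of the epithelial-like cells ran from 0.781% in mouse E to 4.10% in mouse H. By gate, 11 came from PDGFRa singlets pop 3, 9 from EPCAM PDGFRa doublets, 7 from PDGFRa singlets and 4 from CD45 singlets, and 10 of the 34 came from gates sorted for doublets. They were deeper than the rest, with a median of 2992.5 UMIs against 1604.5 in the other 1760 epithelial-like cells. After thinning every cell to 400 UMIs, cells with 4 or more of the genes were 1.10% of all cells, against 1.45% before thinning.

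The mucus genes took between 0.133% and 62.9% of a cell's UMIs in the 34 cells, with a median of 9.10%, and over 10% in 16 of them. *Zg16* had the most UMIs of the 7 genes in 15 cells and *Tff3* in 14, counting molecules without division by length. *Tff3* was found in all 34 cells, at a lowest of 1, a median of 83.5 and a highest of 464 UMIs. *Zg16* was found in 31 cells, with a median of 47.0 and a highest of 470 UMIs.

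The gel-forming mucin and its partners were present at lower counts. *Fcgbp* was found in 33 of the 34 cells at a median of 11 UMIs and a highest of 120. *Muc2* was found in 28 cells at a median of 6.0 and a highest of 56, and *Clca1* in 27 at a median of 6.5 and a highest of 87. *Spink4* was found in 29 cells with a median of 11.5 and a highest of 329 UMIs, and *Agr2* in 27 cells with a median of 5.0 and a highest of 102. The cells were therefore far from alike in their balance of mucus genes.

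The cell with the highest share, from mouse B, had 464 *Tff3*, 287 *Zg16*, 17 *Spink4*, 12 *Muc2*, 5 *Clca1*, 4 *Agr2* and 2 *Fcgbp* UMIs of 1258 in all. A cell of mouse H with 2845 UMIs had 470 *Zg16*, 330 *Tff3*, 109 *Fcgbp*, 87 *Clca1*, 56 *Muc2*, 16 *Spink4* and 9 *Agr2* UMIs. In both cells the 2 most abundant mucus genes were *Tff3* and *Zg16*, while the partners of *Muc2* differed many-fold. Another cell of mouse H, with 6421 UMIs, was led by *Agr2* at 102 UMIs with 74 of *Tff3*, 39 of *Spink4*, 16 of *Fcgbp*, 11 of *Muc2*, 6 of *Clca1* and 0 of *Zg16*. *Agr2* exceeded *Zg16* in 6 of the 34 cells, equalled it in 1 and was below it in 27, a comparison picked after the values were seen.

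**Figure D2:**
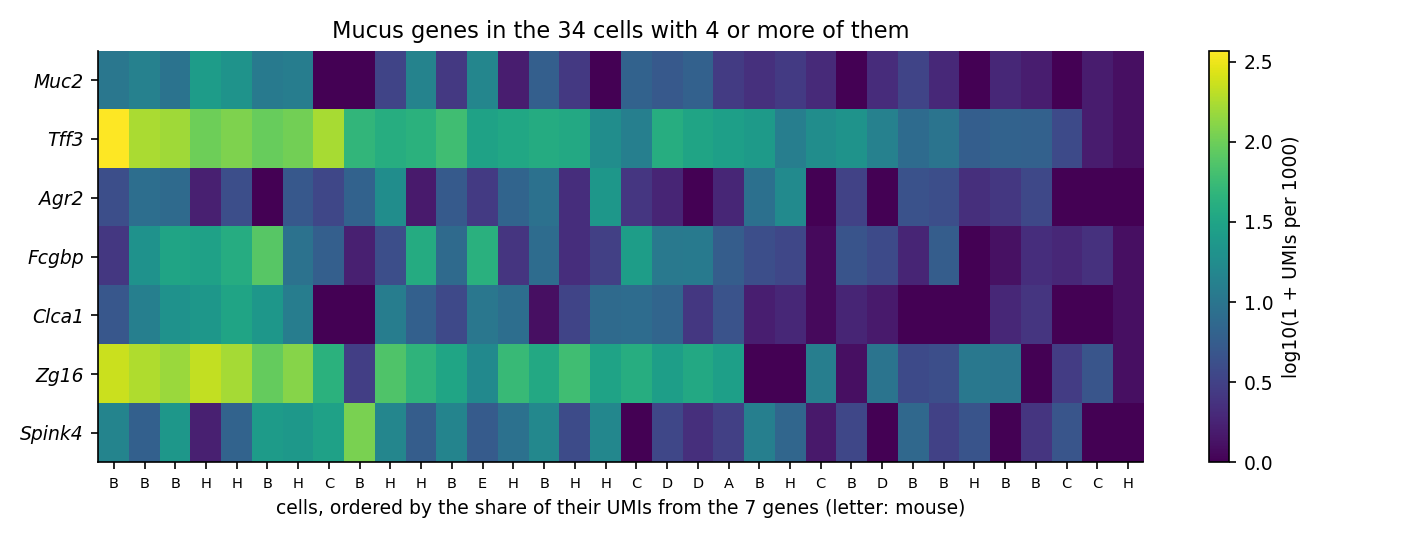
Mucus gene level in each of the 34 single cells with 4 or more of the genes, as log10(1 + UMIs per 1000 UMIs of the cell), with cells ordered from the highest (left) to the lowest share of UMIs on the 7 genes and labelled by mouse. *Tff3* is present in every column, *Zg16* is absent from 3, and *Agr2* is absent from 7.

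*Spink4* reached its highest count in a cell that also held Paneth cell genes. The cell with 329 *Spink4* UMIs, from mouse B, had 142 *Tff3*, 16 *Agr2*, 6 *Zg16* and 2 *Fcgbp* UMIs, no *Muc2* or *Clca1*, and 535 UMIs of the Paneth cell markers. Paneth cells are the antimicrobial secretory cells of the crypt base. It lay in the cluster led by alpha-defensin genes (*Defa17*, *Defa3*, *Defa24*). In the 32 cells of that cluster with fewer than 4 mucus genes, *Spink4* was found in 4 cells with 38 UMIs, or 730 UMIs in 1e6 of their summed UMIs (CPM), against 10.7 CPM in the other such epithelial-like cells. *Tff3* (423 against 51.0 CPM, in 9 of the 32 cells), *Zg16* (173 against 40.3), *Fcgbp* (115 against 9.61) and *Muc2* (57.6 against 5.07) were also higher per UMI in those 32 cells, from 3 to 22 UMIs each. In the same cells *Agr2* and *Clca1* had no UMI (exact interval up to 10.9% of cells for each). Of the 38 *Spink4* UMIs, 15 came from a single cell that also held 352 Paneth marker UMIs, 2 *Tff3* UMIs and 1 *Fcgbp* UMI. The clusters were made from these same cells, so the values are a description.

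In all other cells the genes were mostly seen as single molecules, in counts from which no plate background was subtracted. Of the 267 cells with 1 mucus gene, 193 had 1 UMI of it. Outside the 34 cells *Zg16* was seen in 141 with at most 4 UMIs, *Tff3* in 112 with at most 12, and *Agr2* in 8 with at most 2. In mesenchymal-like cells, which should lack these genes, *Zg16* was found in 15 of 334 cells (4.49%, exact interval 2.54% to 7.30%) and *Spink4* in 7 (2.10%), and *Agr2* in 0 (exact interval up to 1.10%). Those cells had a median of 1021.0 UMIs.

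Before thinning, *Zg16* was found in 6.99% of the epithelial-like cells with fewer than 4 mucus genes and *Tff3* in 6.14% of them, against 4.49% and 0.599% of the mesenchymal-like cells. With all cells thinned to 400 UMIs, *Zg16* was found in 1.83% of the epithelial-like cells with fewer than 4 mucus genes and in 2.12% of the mesenchymal-like cells. *Spink4* was found in 0.494% and 1.17% of them, *Fcgbp* in 0.461% and 0.678%, and *Clca1* in 0.0960% and 0.253%. These 4 shares in epithelial-like cells were at or below those of the mesenchymal-like cells, which rest on few cells. The 200 immune-like cells should lack the genes too and had a median of 666.5 UMIs. Their thinned shares for *Zg16* (0.575%), *Spink4* (0) and *Clca1* (0) were below both the epithelial-like and the mesenchymal-like shares. For *Fcgbp* (0.542%) the share was above the epithelial-like and below the mesenchymal-like one. The source of these UMIs was not tested. *Tff3* was found in 2.04% against 0.431%, *Muc2* in 0.254% against 0.101% and *Agr2* in 0.0830% against 0, while the immune-like cells had 0.629%, 0.504% and 0. Cells with exactly 1 mucus gene came from plates that also held one of the 34 cells in 77.2% of cases, while 60.8% of all cells did. The 2 sets differ in class and depth. Of the 267 cells with 1 gene, 233 were epithelial-like, at a median of 1940 UMIs. Of all 2347 cells, 1794 were, at a median of 1359 UMIs over all cells. In the EPCAM singlets gate, which was 1 plate, 37 of 62 cells (59.7%) had a UMI of some mucus gene, and 1 of the 62 had 4 or more.

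The 34 cells also held other genes known from goblet cells that played no part in choosing them. *Spdef*, a transcription factor of goblet cell maturation, had 17 UMIs in 9 of them and none in the other 1760 epithelial-like cells. *Rep15*, a Rab15 effector, had 16 UMIs in 11 cells against 0, and *Tpsg1*, a tryptase, 17 UMIs in 12 cells against 0. *Klk1*, a kallikrein, had 61 UMIs in 13 cells against 20 UMIs. The peptide hormone gene *Guca2a* stood at 2102 CPM in the 34 cells and at 229 in the others. Of 17 detected further goblet markers, all 17 were higher in CPM in the 34 cells, where 29.8% of 17506 detected genes were. Among the 8829 genes found in at least 20 epithelial-like cells that share was 41.5%. Of the 6 mice with such cells, *Spdef* was higher in 2, *Rep15* and *Guca2a* in 3, and *Tpsg1* and *Klk1* in 4.

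Genes of the mucus production line were compared in the same way, with no test. Among 12 detected genes of mucin glycosylation, 9 were higher and 3 lower. Among 12 genes of the secretory pathway, 11 were higher and 1, *Kdelr3*, lower. Beside both stand 29.8% of all detected genes and 41.5% of genes in at least 20 epithelial-like cells. Most rested on few mice, with *Gcnt3* and *Txndc5* higher in 4 of the 6 and *Galnt7*, *Tsta3* and *Pdia6* in 2. The glycosylation genes that were lower, *Gcnt4*, *B3gnt6* and *Fut2*, had no UMI in the 34 cells. The inositol-requiring enzyme gene *Ern2*, the goblet cell form of this stress sensor, had 5 UMIs in 2 of the 34 cells and none in the other epithelial-like cells. Markers of other lineages differed in direction. The 8 enterocyte markers were all lower, with a sum of 12432 against 43467 CPM, and tuft cell and immune markers had no UMI. Of 6 detected enteroendocrine markers 5 were lower, and *Sct*, the secretin gene, was higher at 106 against 20.5 CPM. All 7 detected Paneth markers were higher, with a sum of 5652 against 294 CPM. Of their 586 UMIs 535 lay in the 1 cell described above, and without it the sum was 506 CPM, with all 7 still higher and UMIs in 11 of 33 cells. The 8 related genes of the mucin, CLCA and other families that were lower of 11 detected included *Muc13*, a membrane-bound mucin, at 1225 against 1773 CPM, and *Muc3* at 174 against 458 CPM.

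Over the 1794 epithelial-like cells, the gene most like the summed mucus genes in log-normalised level was 9530053A07Rik (Pearson r = 0.88 over cells that share plates and depth), of 8829 genes compared. It had 513 UMIs, 96.3% of them in the 34 cells, and r was 0.33 without those cells. This gene lies 8603 bases from *Fcgbp*, from 28129466 to 28164811 on chromosome 7. Of the 10521 words of 31 bases in *Fcgbp* transcripts, 1284 (12.2%) also occur in other genes, 1243 of them in 9530053A07Rik. Reads of the pair may therefore be split between them, and values of both are uncertain. The words were counted over whole transcripts and not over the parts sequenced, so the extent of this uncertainty is unknown. The other 6 mucus genes share no such word with another gene.

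Next in likeness came the chemokine gene *Ccl6* (r = 0.79, 91.6% of its UMIs in the 34 cells), *S100a6* (r = 0.53), *Klk1* (r = 0.52) and *Slc12a8* (r = 0.38). *AW112010*, *Muc3a*, *Gcnt3* (a glycosyltransferase of mucin cores), *Tm4sf4* and *Krt18* followed, with r from 0.32 to 0.28. Without the 34 cells, r of these 9 genes was between -0.024 and 0.10.

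The effect of removing *Lgr5*-expressing cells on the mucus genes was addressed in epithelium, sequenced with mcSCRBseq at 748458 to 4210158 UMIs a mouse. Control and DT replicates 1 and 2 were of batch a and replicates 3 and 4 of batch b. None of the 7 genes passed an adjusted p of 0.05 in edgeR's quasi-likelihood test with batch as a term, where 32 of 8986 tested genes did (0.356%). With the replicate number, which 1 control and 1 DT mouse of a batch share, as a block, 3 genes and none of the 7 passed. Within batches, mice of the same number were not positively correlated (-0.16 and -0.06), so this block may pair unrelated mice. At an unadjusted p under 0.05, 3 of the 7 were lower, *Muc2*, *Fcgbp* and *Zg16*, where 8.44% of all tested genes were lower at that level. Fitted changes were below 0 in 6 of the 7 genes, against 49.5% of all genes, with a median log2 fold change of -0.35 against 0.00 over all genes. DESeq2 called 143 genes, among them *Fcgbp* (adjusted p = 0.00503). Fewer goblet cells and less mRNA per goblet cell cannot be told apart in these bulk samples.

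*Muc2* stood at 934, 646, 595 and 776 CPM (counts in 1e6, TMM-scaled) in control mice 1 to 4 and at 857, 485, 334 and 252 in DT mice 1 to 4. The groups overlapped through DT mouse 1, and the 3 other DT mice were below every control. The log2 fold change was -0.73 (SE 0.29, 95% interval -1.37 to -0.096, adjusted p = 0.245 in edgeR).

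*Fcgbp* stood at 1995, 2449, 1153 and 1792 CPM in controls and at 1484, 1078, 835 and 657 in DT mice. In each batch both DT mice were below both controls, and across batches only DT mouse 1 was above a control. The log2 fold change was -0.89 (SE 0.25, interval -1.43 to -0.35, adjusted p = 0.192 in edgeR).

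*Zg16* stood at 3218, 1715, 2367 and 4168 CPM in controls and at 1820, 1736, 1578 and 1020 in DT mice. Control mouse 2 fell among the DT mice, and the other controls were above them all. Its log2 fold change was -0.90 (SE 0.32, interval -1.60 to -0.20, adjusted p = 0.232 in edgeR).

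*Clca1* stood at 388, 168, 273 and 383 CPM in controls and at 503, 202, 204 and 119 in DT mice. DT mouse 1 had the highest value of all 8. The log2 fold change was -0.35 (SE 0.40, interval -1.24 to 0.53, adjusted p = 0.663 in edgeR), an interval that holds the fold change of *Muc2* as well as a rise.

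*Tff3* ran from 273 to 2311 CPM among the controls (1076, 273, 1613 and 2311) and from 684 to 1462 among the DT mice (684, 952, 1462 and 1123), with a log2 fold change of -0.17 (SE 0.39, adjusted p = 0.849 in edgeR). *Spink4* ran from 391 to 1088 among the controls (619, 391, 1072 and 1088) and from 448 to 782 among the DT mice (782, 448, 736 and 621), with a log2 fold change of -0.20 (SE 0.29, adjusted p = 0.736 in edgeR). For both genes the DT values lay within the range of the controls.

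*Agr2* was the 1 mucus gene with a fitted change above 0, where 50.5% of all genes were. It stood at 138, 68.4, 368 and 387 CPM in controls and at 143, 235, 433 and 493 in DT mice. In each batch both DT mice were above both controls, which held in both batches for 9.69% of all genes. The log2 fold change was 0.56 (SE 0.26, interval -0.00071 to 1.12, adjusted p = 0.288 in edgeR).

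**Figure D3:**
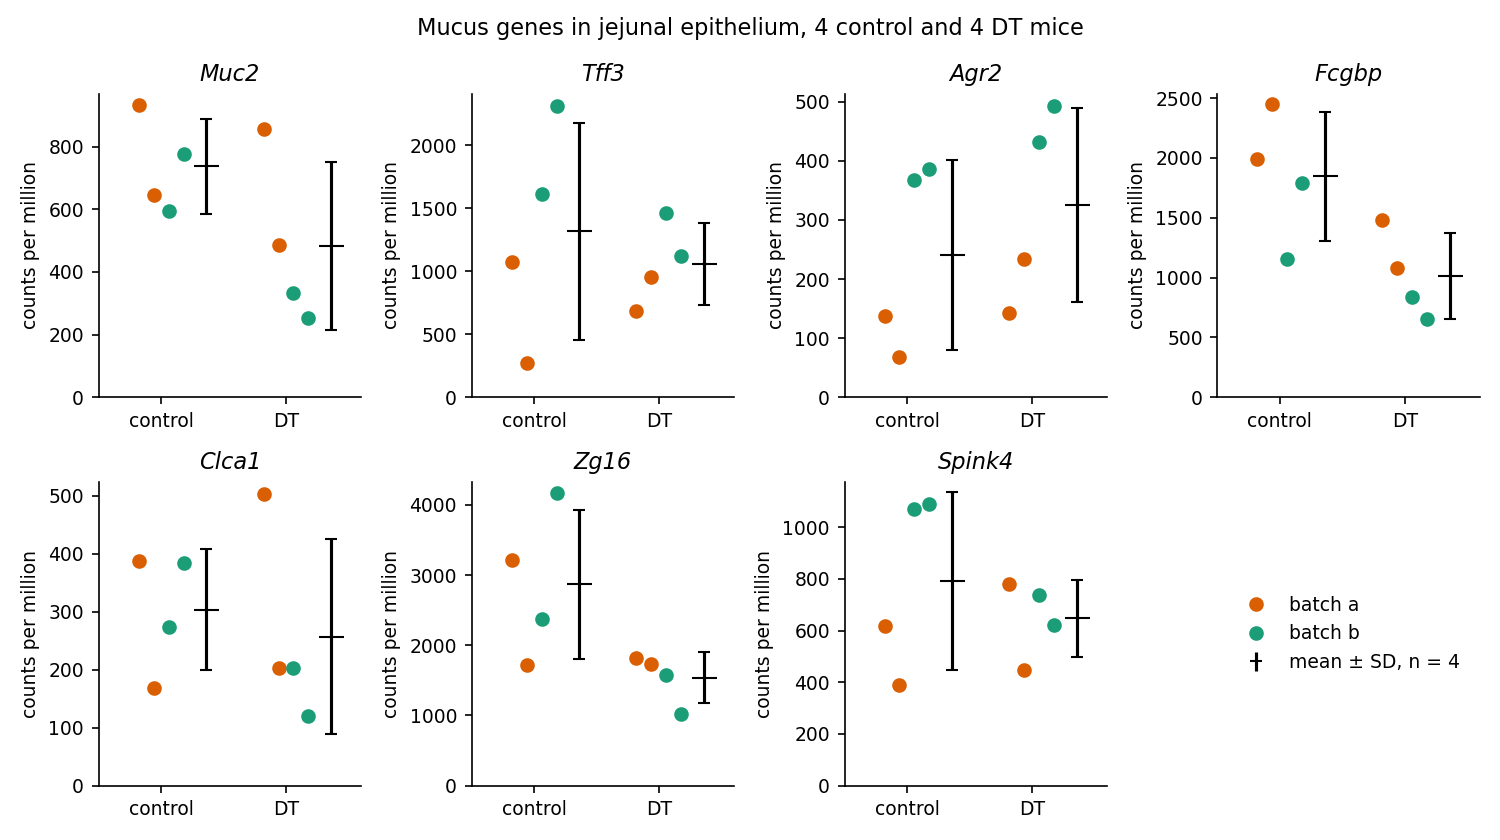
CPM (TMM-scaled) of the 7 mucus genes in jejunal epithelium of 4 control and 4 DT mice, with batch in colour and the mean ± SD beside each group (n = 4). *Fcgbp* is lower in DT mice within both batches, *Agr2* is higher within both, and *Tff3*, *Agr2* and *Spink4* are higher in batch b than in batch a among controls.

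Levels in control mice differed between the batches. Between them, the mean log2 level in batch b exceeded that in batch a by 1.96 for *Agr2*, 1.83 for *Tff3* and 1.13 for *Spink4*, and differed by -0.62 for *Fcgbp*. In batch b alone, both DT mice were below both controls for 6 of the 7 genes, all but *Agr2*, where 20.6% of all genes showed this. In batch a it held for *Fcgbp* alone, against 19.7% of all genes. Over both batches it held for *Fcgbp*, against 8.09% of all genes.

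Within batch b the log2 fold change was -1.24 for *Muc2*, -1.34 for *Zg16*, -1.03 for *Clca1*, -0.996 for *Fcgbp*, -0.69 for *Spink4* and -0.62 for *Tff3*. Within batch a it was -0.80 for *Fcgbp*, -0.47 for *Zg16* and -0.24 for *Muc2*, and above 0 for *Clca1* (0.32), *Tff3* (0.28) and *Spink4* (0.28). For *Agr2* it was 0.86 in batch a and 0.27 in batch b. In batch b alone 5 of the 7 genes (*Muc2*, *Fcgbp*, *Clca1*, *Zg16* and *Spink4*) were lower at an unadjusted p under 0.05, against 5.57% of all genes. No mucus gene passed the adjusted p of 0.05 in either batch in edgeR, where 0 of 8193 genes did in batch a (0.0%) and 5 of 8547 in batch b (0.0585%). The difference between the batches in DT effect did not pass for any of the 7 genes (unadjusted p from 0.0818 for *Clca1* to 0.730 for *Fcgbp*, adjusted p = 0.999854 for each in edgeR), nor for any gene tested (0.0%, with 2.48% at an unadjusted p under 0.05).

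**Figure D4:**
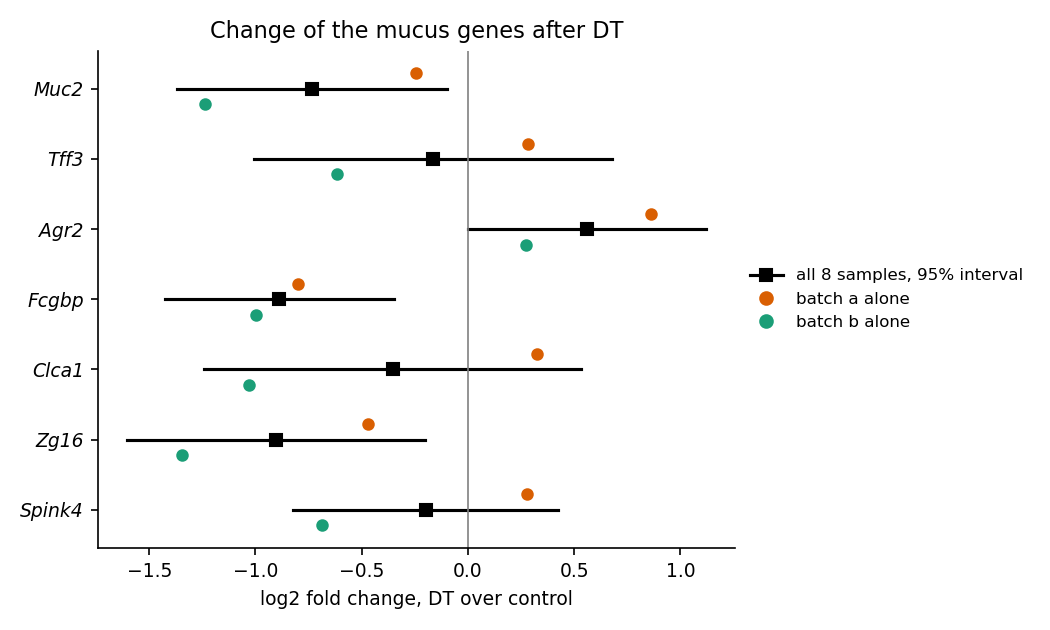
Log2 fold change of the 7 mucus genes in DT over control epithelium. Squares with bars show the fit over 8 mice with its 95% interval, and circles show each batch alone. The bars of *Muc2*, *Fcgbp* and *Zg16* lie below 0, and the batch circles of *Clca1*, *Tff3* and *Spink4* lie on opposite sides of 0.

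Because *Agr2* and *Zg16* differed in direction, their ratio was computed after the values were seen and is a description. There were 4.29, 3.99, 15.6 and 9.29 *Agr2* UMIs per 100 *Zg16* UMIs in controls 1 to 4 and 7.83, 13.5, 27.4 and 48.3 in DT mice 1 to 4. Within each batch both DT mice were above both controls.

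None of the lists of other goblet cell genes held a called gene. A list of relatives of the mucus genes, which is not confined to goblet cells, held 1. The genes of each list were read from the same edgeR fit, and 0 of 5 tested fate factors, 0 of 10 glycosylation genes, 0 of 12 secretory pathway genes and 0 of 9 further goblet markers passed. *Klf4*, a transcription factor of terminal differentiation that enterocytes also express, had a log2 fold change of -0.75 (SE 0.20, adjusted p = 0.190). *Xbp1*, a factor of the unfolded protein response, was at 0.29, *Foxa3* at 0.034 and *Creb3l1* at 0.39. The 12 secretory pathway genes, to whose compartment *Agr2* belongs, had a median log2 fold change of 0.41. Of them 9 were above 0, against 50.5% of all genes. At an unadjusted p under 0.05, 5 were higher, where 8.82% of all genes were higher at that level. *Ern2* was lower at that level, at -0.63 (unadjusted p = 0.0442, adjusted p = 0.278 in edgeR). The 4 secretory pathway genes with the highest level were *Manf* at 0.53, *Dnajc10* at 0.42, *Pdia6* at 0.41 and *Txndc5* at 0.16. Of these, *Manf* and *Dnajc10* were among the 5 that were higher.

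The glycosylation genes had a median of 0.13, with *Nans* at 0.48, *Tsta3* at 0.24, *Galnt7* at -0.023 and *Uap1* at -0.21. The further goblet markers had a median of 0.27, with *Guca2a* at 0.59, *Smim6* at 0.54, *Rep15* at 0.37 and *Scin* at -0.37. Of 8 tested relatives of the mucus genes, 1 passed. *Clca4a*, a relative of *Clca1* that villus enterocytes express, fell from 409, 195, 595 and 293 CPM in controls to 104, 76.7, 93.5 and 98.0 in DT mice, with a log2 fold change of -1.99 (SE 0.29, adjusted p = 0.0288). *Muc13* was at -0.33, *Clca4b* at -0.50, *Muc3* at -0.13 and *Clca3b* at 0.21.

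Some markers of tuft and Paneth cells passed the test, and no difference between the lists was tested. In the tuft cell list 5 of 6 tested genes fell (*Dclk1*, *Trpm5*, *Sh2d6*, *Rgs13* and *Alox5ap*), with log2 fold changes from -3.31 for *Sh2d6* to -2.61 for *Trpm5* and adjusted p from 0.0288 to 0.0439 in edgeR. In the Paneth list 2 of 7 fell, *Itln1* (-2.12, adjusted p = 0.0341) and *Defa24* (-2.45, adjusted p = 0.0435), and all 7 were below 0. With the replicate number as a block, *Clca4a*, *Itln1*, *Defa24* and these 5 tuft genes did not pass, with adjusted p from 0.0624 to 0.140 in edgeR. Of the 8 fits that left out 1 mouse, *Dclk1* passed in 6, *Clca4a* in 5, and *Itln1*, *Defa24* and *Trpm5* in 1 each. None of 6 enteroendocrine, 8 enterocyte, 5 stem cell, 5 proliferation and 5 immune markers passed. *Lgr5* itself stood at 45.0, 77.3, 10.7 and 24.5 CPM in controls and at 47.2, 32.9, 6.30 and 12.6 in DT mice (log2 fold change -0.75, adjusted p = 0.258). None of the 5 mesenchymal markers reached the level for testing. The part of these changes in the mucus gene values was not tested.

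Where along the crypt-villus axis the mucus genes were found was addressed in the microdissected stroma, 29 libraries made with SMARTseq from 5 mice. The levels are the TPM values (transcripts in 1e6) of the authors, rescaled to ppm (parts in 1e6) after genes abundant in enterocytes and genes above 1% of a library were left out of the denominator, and sections of a mouse were averaged. Of the 7 mucus genes, 5 were among the genes left out of the denominator and kept their own values. The dissected stroma held epithelial mRNA in every library. The summed level of the 7 mucus genes was above that of 5 mesenchymal markers in 18 of 18 combinations of mouse and zone. In the 29 libraries the 8 enterocyte markers summed to between 664 and 174971 ppm. The genes abundant in control epithelium, without the mucus genes, took 4.96% to 44.4% of the TPM. They were picked by level alone, so stroma may express some of them too. The Paneth markers, which belong at the crypt base, summed to 33404 to 180555 ppm in the crypt and to 12.3 to 323955 ppm at the villus tip, so that some tip libraries went against their label. The share of these admixed cells in the zone values of the mucus genes was not tested.

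No mucus gene passed the adjusted p of 0.05 in limma between any pair of the zones compared, and neither did any of 13559 genes tested (0.0% in each comparison). At an unadjusted p under 0.05 there were 438 genes (3.23%) between villus tip and crypt, 205 (1.51%) between villus bottom and crypt and 617 (4.55%) between villus tip and bottom, with no mucus gene among them. Between tip and crypt all 7 genes were fitted lower at the tip, where 48.5% of all genes were, with a median difference of -1.53 on the log2 scale against 0.04 over all genes. In the 3 mice with both zones each of the 7 genes was lower at the tip in 2, and mouse 4, which had no crypt sample, was low at the tip. Without mouse 4 the difference was 0.55 for *Muc2*, 0.017 for *Tff3* and 0.30 for *Agr2*. It stayed below 0 for *Fcgbp* (-0.067), *Clca1* (-0.28), *Zg16* (-0.60) and *Spink4* (-0.15). Between bottom and crypt 4 were lower, against 42.1% of all genes, and 3 higher. Between tip and bottom 6 were lower, against 52.3% of all genes, with a median of -0.73 against -0.06. These fits take the zones as separate mice, although the zones of 1 mouse share the animal. With the mouse as a fixed term, 6 genes were lower at the tip than in the crypt, against 51.4% of all genes, and the median was -0.34 in place of -1.53, with *Muc2* at 0.25, *Spink4* at -0.13, *Fcgbp* at -0.21, *Clca1* at -0.34 and no gene called. The median between tip and bottom was -0.73 with or without this term. Differences within mice, in an exact two-sided sign-flip test chosen after the values were seen, gave p from 0.0625 to 1 over 21 comparisons (adjusted p from 0.808 to 1). With 3 mice in both zones that test can go no lower than 0.25, and with 5 mice no lower than 0.0625, which *Tff3* between tip and bottom reached. The narrowest 95% interval, that of *Muc2* between tip and bottom, ran from -3.02 to 1.56 on the log2 scale, and that of *Clca1* between tip and crypt ran from -6.40 to 3.33, so only very large zone differences could have been detected.

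*Zg16* was the highest of the 7 in 15 of 18 combinations of mouse and zone, on a scale that divides by transcript length. Its crypt mean over 3 mice was 8695 ± 5840 ppm (SD). Over 5 mice each, the bottom of the villus averaged 7818 ± 5110 ppm, the center 11130 ± 14284 and the tip 5195 ± 5240. *Tff3* averaged 3119 ± 2508, 3821 ± 2044, 4377 ± 3133 and 1773 ± 1329 ppm in the same order. *Tff3* was lower at the tip than at the bottom in 5 of 5 mice, with a log2 difference of -2.14 (95% interval -4.79 to 0.52, adjusted p = 0.991 in limma).

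*Muc2* averaged 155 ± 129 ppm in the crypt, 141 ± 109 at the bottom, 205 ± 215 at the center and 98.7 ± 77.0 at the tip. *Fcgbp* averaged 2022 ± 1884, 1883 ± 1267, 1867 ± 1938 and 966 ± 899 ppm, and *Clca1* 1409 ± 1235, 1427 ± 946, 2365 ± 4130 and 863 ± 1120. The SDs were of the size of the means in most zones. *Agr2* averaged 456 ± 558, 430 ± 357, 592 ± 735 and 371 ± 507 ppm, and was lower at the tip than at the bottom in 2 of 5 mice.

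*Spink4* was the gene with a fitted value above 0 between tip and bottom (0.997, interval -2.72 to 4.72, adjusted p = 0.991 in limma), and it was higher at the tip in 4 of 5 mice. It averaged 3713 ± 1960 ppm in the crypt, 2266 ± 1681 at the bottom, 2094 ± 1853 at the center and 3223 ± 3319 at the tip. Its highest value, 15275 ppm, was in a tip section of mouse 1 whose Paneth markers summed to 413269 ppm, and a tip section of mouse 3 with 6346 ppm had a Paneth sum of 612441 ppm. In the crypt the higher of the sections of mouse 3 had 7799 ppm beside a Paneth sum of 287706 ppm. These 3 sections had both the highest *Spink4* values and the highest Paneth sums of the 29, but mouse 5 had 2175 ppm at the center with a Paneth sum of 221 ppm and 1927 ppm at the tip with 1246 ppm. Paneth sums of this size are possible because abundant genes are left out of the denominator.

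**Figure D5:**
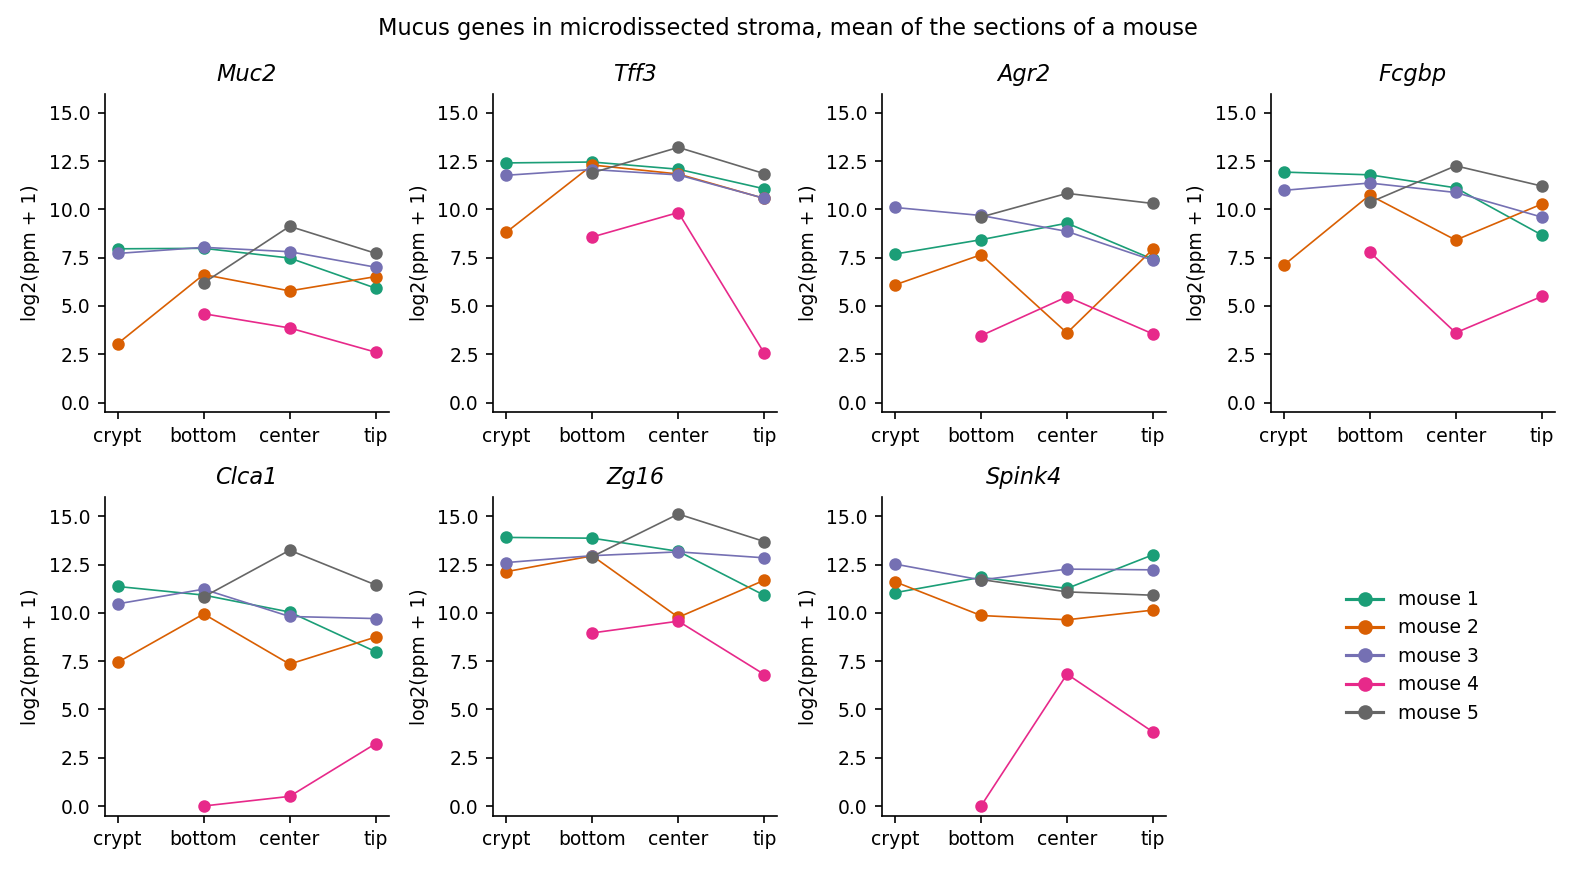
Level of the 7 mucus genes as log2(ppm + 1) in the crypt and in the bottom, center and tip of the villus, with 1 line for each mouse (mean of its sections). Mouse 4 (pink) is the lowest in most panels and mouse 5 (grey) peaks at the villus center for most genes.

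The mice differed widely. Mouse 4 had the lowest summed mucus level in each villus zone, with 1131 ppm at the bottom, 1855 at the center and 197 at the tip, and *Clca1* and *Spink4* were listed at 0 in its villus bottom. Mouse 5 had the highest at the center (64168 ppm) and the tip (25501 ppm). The summed level in mice 1, 2 and 3 was 29897, 8455 and 20354 ppm in the crypt and 13195, 7955 and 15607 ppm at the tip.

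Sections of the same mouse and zone could differ as much. In 8 of 11 pairs of sections the summed mucus level was more than 2-fold apart, up to 8.75-fold at the villus bottom of mouse 1 (6211 and 54366 ppm). In 7 pairs 6 or 7 of the genes were on the same side, and in 3 pairs all 7. The share of TPM on the genes abundant in control epithelium, counted without the mucus genes, moved in the same direction as the mucus sum in 5 of the 11 pairs.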

How the data were processed

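Epithelium, single cells and microdissected stroma were analysed from the tables the authors deposited. The epithelium and single-cell tables hold UMI counts per gene, which the authors made with zUMIs on GRCm38 (bcl2fastq 2.15.0.4 per the submitters' processing notes) and deposited without normalization. The stroma table holds TPM values, which the authors made with kallisto and sleuth on coding transcripts and deposited per gene; TPM keeps no read number, so the depth of those libraries is unknown. The 7 genes and all gene lists were chosen with earlier results of these data known. Some genes of these lists are not reported here, and the counts leave them out.

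Epithelial counts were compared with edgeR 4.0.16 (TMM, robust quasi-likelihood, batch as a term, genes above 1e-05 of the UMIs in at least 2 samples), with Benjamini-Hochberg adjustment over all tested genes. DESeq2 1.42.0 was run beside it. The batches come from the study's supplementary material. The correlations of deviations between control and DT samples of the same number were 0.61, 0.41, 0.66 and 0.58, and this was counted as pairing by number, which the shared batch gives (within batches -0.16 and -0.06).

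Stroma values were rescaled (420 genes that make up the top 50% of control epithelial UMIs, and genes above 1% of a library, left out of the denominator), filtered at 5 ppm and averaged per mouse. The log2(ppm + 1) values were compared with limma 3.58.1, so that fold changes of low genes are understated, and zones of 1 mouse come from the same animal. Single cells were clustered with Seurat 5.3.0 on 1250 variable genes with the mucus genes held out. The paper subtracted from each cell the mean counts of the empty wells of its plate. That was not done here, so low counts can include plate background. Doublets were not called or removed, because several gates collected cell pairs, and 352 wells of 1 plate that matched no sample were not used. Intervals of shares are exact (Clopper-Pearson). Named genes outside the 7 are those past the adjusted p of 0.05 in the DT comparison. Otherwise up to 4 of a list are named by level, with the 10 genes most like the mucus genes. Genes of the lists named for the single cells, and *Ern2* in the DT comparison, were chosen after their values were seen. The edgeR and limma fits were first tested on simulated data. Alternatives were other filters, pseudocounts, tools, blocks and left-out mice.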

Additional observations from a re-analysis of the deposited data

Results flagged for a closer look

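On the ppm scale, mouse 5 stood apart from the other mice in the microdissected stroma for 3 values. Each had a gap to the next mouse beyond Dixon's 95% limit. It had 1264 ppm of *Agr2* at the villus tip, where the other 4 mice had 10.7 to 245 ppm. At the villus center it had 9707 ppm of *Clca1*, against 0.41 to 1054 ppm in the others, and 35547 ppm of *Zg16*, against 759 to 9329 ppm. Among 35 groups of samples examined in this way, chance passes about 1 in 20 where values are normally distributed. The SDs in ppm were of the size of the means in most zones, so that rate may not hold here. The gaps were not examined on the log2 scale of the zone fits. The 3 values share 1 mouse, with 2 of them from 1 library. The Paneth markers of that center library summed to 221 ppm and its mesenchymal markers to 35.0 ppm.

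Wells above 8000 UMIs were left out of the single cells. Of these 75 wells, with a median of 11517 UMIs, 14 held 4 or more of the mucus genes (18.7%, exact interval 10.6% to 29.3%), against 1.45% of the cells used. They held 4794 mucus gene UMIs. Whether they are single cells was not tested. A further 21 of the 9924 wells under the limits on UMIs or genes held 4 or more.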

How the results depend on the processing

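In the ablation experiment 32 genes and no mucus gene were called. The count of all genes was 1 with no batch term, 3 with the replicate number as a block, 635 without the filter on low counts, 0 in batch a and 5 in batch b alone, 214 at an adjusted p of 0.2 and 143 with DESeq2. With 1 mouse left out it ran from 3 to 41 (3 without control 1, 7 without DT 2, 9 without DT 3, 10 without control 3, 11 without control 4 and 21 without control 2). The count of mucus genes stayed at 0 in each of these left-out fits, and was 2 without the filter (*Fcgbp*, adjusted p = 0.0311, and *Zg16*, adjusted p = 0.0347), 1 at an adjusted p of 0.2 and 1 with DESeq2 (*Fcgbp*). The cause of these shifts was not tested. The block changed the call of no mucus gene (adjusted p 0.379 for *Fcgbp*). Log2 fold changes in batch a alone were above 0 for *Tff3* (0.28), *Clca1* (0.32) and *Spink4* (0.28), and with 1 mouse left out *Tff3* ran from -0.52 to 0.16, being above 0 without control 1 (0.16), control 4 (0.029) or DT 4 (0.0059).

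In the stroma no mucus gene was called under any alternative run, but directions turned. With the mouse as a block *Muc2* was at 0.25 between tip and crypt, and *Agr2* at 0.046 and *Clca1* at 0.022 between bottom and crypt, and the median of the 7 genes between tip and crypt moved from -1.53 to -0.34. Differences within the mice that had both zones, added after the values were seen, were 0.24 for *Muc2* and 0.067 for *Spink4* between tip and crypt, and 0.63 for *Agr2*, 0.94 for *Clca1* and 0.38 for *Zg16* between bottom and crypt. With a pseudocount of 0.1 *Clca1* was at 0.27 between tip and bottom. With 1 mouse left out, the tip minus crypt difference ran from -2.02 to 0.58 for *Muc2*, -3.08 to 0.017 for *Tff3*, -1.74 to 0.41 for *Agr2* and -2.71 to 0.099 for *Fcgbp*. Bottom minus crypt ran from -1.14 to 0.98 for *Muc2*, -0.84 to 1.18 for *Tff3*, -1.10 to 0.88 for *Agr2*, -1.13 to 1.06 for *Fcgbp*, -2.67 to 0.97 for *Clca1* and -1.08 to 0.29 for *Zg16*. Tip minus bottom ran from -0.74 to 0.018 for *Agr2* and -1.26 to 0.28 for *Clca1*.

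Cells with any mucus gene were 14.7% of all, 5.50% when 2 UMIs were asked for, 5.89% after thinning to 400 UMIs and 13.4% to 17.4% with 1 mouse left out. The share with 4 or more of the genes moved less (1.45%, and 1.10% to 1.68% over the alternatives). Counting depth limits the single cells, and 3 to 5 mice a zone limit the stroma.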
